A study of Saccharomyces cerevisiae with 5 samples.

Results

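Misfolded proteins in budding yeast are gathered into deposits and later refolded or degraded. Genes of that process are described here after exposure to copper, together with HSP31, HSP30 and HSF1, as a set of 8. HSP104 encodes the disaggregase that pulls proteins out of aggregates. HSP42 and HSP26 encode small heat-shock proteins that bind unfolding proteins, and BTN2 and CUR1 encode related sorting factors that send aggregates to particular places in the cell. HSP31 and HSP30 are heat-inducible genes of other kinds, and HSF1 encodes the heat shock transcription factor. The genes were chosen by function and symbol with their copper ratios already known, so the tests on them below are descriptions and carry no independent weight. All 8 of 8 were found among 5379 named genes of the array, each as a single spot, and all 8 were among the 4824 genes that held a value on every array and were tested.

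The cells were Saccharomyces cerevisiae S288C, the reference laboratory strain, with no genetic change between the groups. Cultures grew in YPD, a rich glucose medium, at 25 °C with shaking, and copper(II) sulfate was brought to 10 mM at an optical density of 1 for 2 h. Control cells grew for the same 2 h without it. Treated cDNA carried Cy5 and untreated cDNA carried Cy3 on each of 3 arrays of independent biological samples. Each value is a log2 ratio within an array.

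The direction of the ratios is not stated in the table, and copper over untreated is the likely one, from the order of the channels. In that direction CUP1-1, the copper metallothionein gene that copper is known to induce, had a mean log2 ratio of 4.33 ± 1.53 (SD, n = 3). CTR1, the copper transporter gene that copper is known to shut off, had -3.13 ± 0.95. Every "higher" and "lower" below would change places in the other direction. Copper-treated cDNA carried the same dye throughout, and a bias of that dye and the effect of copper cannot be told apart. A ratio of bulk RNA also cannot tell fewer expressing cells from less RNA per cell. Separate control cultures for the arrays are not described, and the p-values therefore cover only the spread seen between the arrays.

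Hsf1 is held back by the Hsp70 chaperones in unstressed cells and is released when misfolded proteins occupy them. It then raises the transcription of chaperone genes, several of this set among them. Hsp42 and Btn2 collect misfolded proteins at peripheral and nuclear deposits, Cur1 moves the J-domain protein Sis1 into the nucleus, and Hsp104 later dissolves the deposits together with Hsp70.

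The genes split into a lower and a higher set. The disaggregase gene HSP104, the small heat-shock gene HSP42, both sorting factor genes and HSP30 fell, whereas HSP26 and HSP31 rose. HSF1 itself did not pass the test. Of the 8 genes, 5 passed downward and 2 passed upward at an adjusted p of 0.05 in the limma fit over all genes, with Benjamini-Hochberg adjustment. In the background of all 4824 tested genes, 12.0% passed downward, 11.5% passed upward and 23.5% passed in either direction. The median of the 8 mean log2 ratios was -0.73, beside -0.04 over all tested genes.

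**Figure D1:**
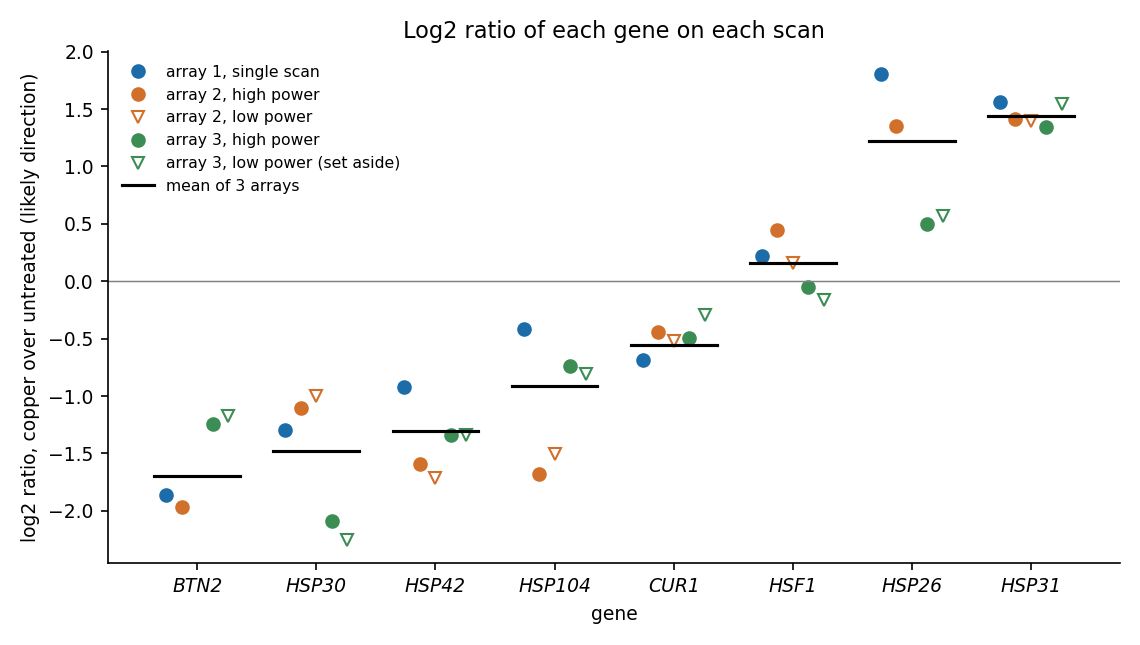
Log2 ratio of each of the 8 genes (vertical axis) on each of 5 scans, with genes in order of their mean. Filled circles are the scans of full or high power, open triangles the low-power scans, and bars the mean of 3 arrays. BTN2, HSP30, HSP42, HSP104 and CUR1 lie below 0 on every scan, HSP26 and HSP31 above 0 on every scan, and HSF1 on both sides.

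BTN2 (YGR142W) had the lowest mean ratio of the 8. Its log2 ratios were -1.86, -1.97 and -1.24 on arrays 1, 2 and 3, and arrays 1 and 2 were lower than array 3. The mean was -1.69 ± 0.39 (SD, n = 3), a 3.23-fold fall, which placed BTN2 as number 7 of 4824 genes from the lowest. CUR1 (YPR158W), its relative, had -0.69, -0.48 and -0.50. These values lay close together, at a mean of -0.56 ± 0.12, a 1.47-fold fall. CUR1 stood as number 553 from the lowest. The pair thus shared a direction and differed in size: BTN2 was lower than CUR1 by a log2 of 1.18, 1.49 and 0.75 on arrays 1, 2 and 3, and the values of both genes did not overlap. CUR1 did not pass without array 1 (mean -0.49, adjusted p = 0.229, in a fit that gave all genes a single variance) or without array 2 (mean -0.59, adjusted p = 0.0640). It passed without array 3 (mean -0.59, adjusted p = 0.0443), and its mean changed little in each case.

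HSP42 (YDR171W) encodes the small heat-shock protein that is present in growing cells and builds peripheral deposits. Its log2 ratios were -0.92, -1.65 and -1.34, with a mean of -1.30 ± 0.36, or a 2.47-fold fall. All arrays were well below 0, and array 1 was the least changed. HSP26 (YBR072W), the other small heat-shock gene, is known for its induction by heat and in stationary phase. It had 1.81, 1.35 and 0.50, with a mean of 1.22 ± 0.66, or a 2.33-fold rise. The ratio on array 3 was far below those on the other arrays, and the spread of HSP26 was wider than that of 96.6% of tested genes. HSP26 stood 2.73, 3.00 and 1.84 above HSP42 on the log2 scale on arrays 1, 2 and 3, so the 2 small heat-shock genes did not overlap on any array. Without array 3 the mean of HSP26 was 1.58, and without array 1 it was 0.93.

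HSP104 (YLL026W) varied most between arrays among the genes that fell. Its log2 ratios were -0.41, -1.59 and -0.74, with a mean of -0.91 ± 0.61, or a 1.88-fold fall. Array 2 was by far the lowest, and the spread was wider than that of 94.7% of tested genes. On array 1 HSP104 was number 1011 from the lowest, and on array 2 it was number 42. Without array 2 the mean was -0.58 and the gene did not pass (adjusted p = 0.0747). In that fit the number of genes passing downward in the whole table also dropped, from 578 to 218.

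HSP31 (YDR533C) encodes a chaperone of the DJ-1 family that also breaks down methylglyoxal, a toxic by-product of sugar metabolism. It had 1.56, 1.40 and 1.35, which lay close together, as those of CUR1 did. The mean was 1.44 ± 0.11, a 2.71-fold rise and number 39 of 4824 from the highest. HSP30 (YCR021C) encodes a plasma membrane protein that restrains the proton pump Pma1. Its ratios were -1.29, -1.05 and -2.09, with a mean of -1.48 ± 0.54, or a 2.78-fold fall. Array 3 was the lowest, where HSP30 was number 3 of 4824, whereas HSP104, HSP42 and BTN2 were lowest on array 2.

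HSF1 (YGL073W) had 0.22, 0.30 and -0.05. The arrays lay on both sides of 0, and the mean of 0.16 ± 0.18 did not pass (adjusted p = 0.468). These are mRNA ratios and do not measure the activity of the Hsf1 protein.

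**Figure D2:**
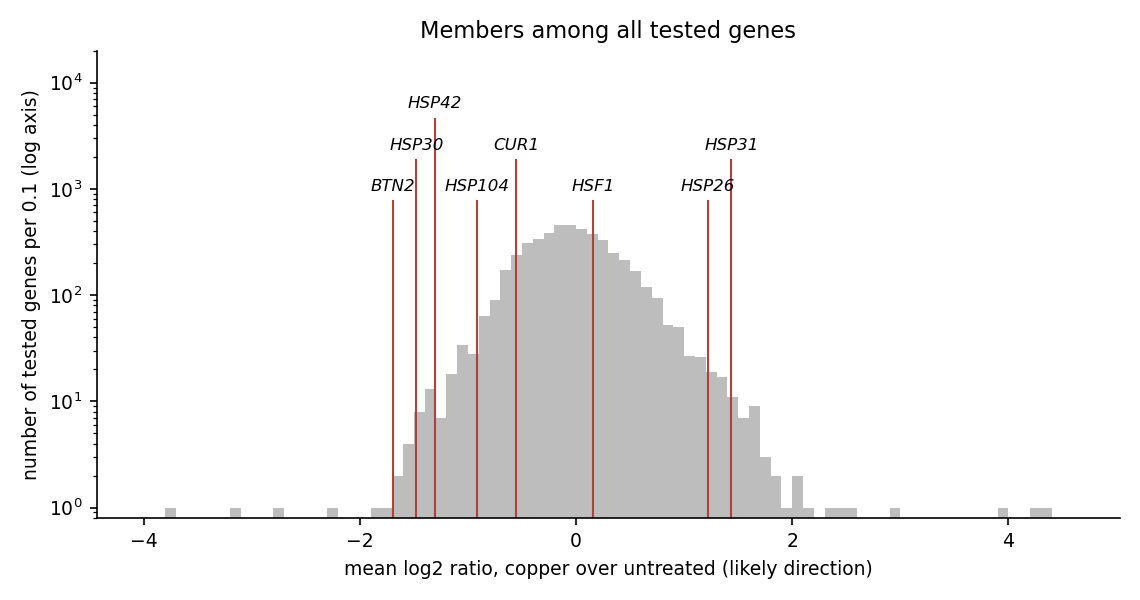
Number of tested genes (vertical axis, log scale) by mean log2 ratio in steps of 0.1 (horizontal axis), with vertical lines at the 8 genes. BTN2, at -1.69, and HSP30, at -1.48, lie in the low tail and HSP31, at 1.44, in the high tail. HSF1, at 0.16, lies in the bulk of the 4824 genes.

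In order of the mean ratio the genes ran BTN2, HSP30, HSP42, HSP104, CUR1, HSF1, HSP26 and HSP31. The differences between BTN2 and HSP30 (-0.22 ± 0.93 on the log2 scale, SD over 3 arrays), HSP30 and HSP42 (-0.17 ± 0.70) and HSP104 and CUR1 (-0.36 ± 0.70) were smaller than their spread over arrays. The same was true of HSP31 and HSP26 (0.22 ± 0.56). HSP42 minus HSP104 was -0.51, -0.06 and -0.60 on arrays 1, 2 and 3 (mean -0.39 ± 0.29). On array 2 the order depended on the scan. HSP104 was the lower at high power (-1.68 against -1.59) and HSP42 at low power (-1.71 against -1.50). CUR1 was lower than HSF1 on every array (-0.71 ± 0.24), and HSF1 was lower than HSP26 on every array (-1.06 ± 0.52).

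The scans of an array were compared to see how far reading the same spot again moved the ratios. On array 2 the high- and low-power scans of 6 of the genes differed by at most 0.29, for HSF1, while BTN2 and HSP26 held no value on the low-power scan. On array 3 all 8 genes differed by at most 0.21 between scans, largest for CUR1. Over all genes with both scans the difference had an SD of 0.21 on array 2 and 0.24 on array 3. The departures of HSP104 on array 2, HSP26 on array 3 and HSP30 on array 3 were present on each scan of those arrays that held a value: HSP104 read -1.68 and -1.50, HSP26 read 0.50 and 0.57, and HSP30 read -2.09 and -2.25. For CUR1 and HSP31 the scans of array 3 differed by 0.21 and 0.20, about as much as their whole range over the arrays (0.21 and 0.22). Both scans read the same spot, so they do not test the spotting, the labelling or the cultures.

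The relatives of these genes moved in either direction. HSP78, the mitochondrial relative of HSP104, fell by 0.92 ± 0.40 on the log2 scale, with -1.21, -1.08 and -0.47, a mean like that of HSP104 (-0.91) although the arrays were ordered differently. Array 1 was the lowest for HSP78 and the highest for HSP104. Among the relatives of HSP30, YRO2 rose, with 0.69, 0.77 and 0.25 (mean 0.57 ± 0.28). HSP30 was lower than YRO2 by 2.05 ± 0.26, on every array. MRH1, the other relative, had -0.25, -0.15 and 0.06 (mean -0.11 ± 0.16) and did not pass. The call of YRO2 was lost without array 1 (adjusted p = 0.207), without array 2 (0.133) and with both scans joined for array 3 (0.0570). All genes shared a single variance in the fit without array 1.

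The relatives of HSP31, which are HSP32, HSP33 and SNO4, held a value on array 3 only, of 0.89, -0.09 and -0.43, and were not tested. Their sequences are close to each other and related to HSP31, so a spot of one may also take up cDNA of another. The ratio of HSP31 is uncertain to that extent.

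HSF1 shares its kind of DNA-binding domain with 4 other yeast factors, and 1 of them, MGA1, fell. MGA1 had -1.30, -1.79 and -1.65, a mean of -1.58 ± 0.25, and lay below HSF1 on every array, by 1.74 ± 0.31. SFL1, a repressor of flocculation genes, had 0.75, 0.83 and 0.10 (mean 0.56 ± 0.40, adjusted p = 0.0562), and passed upward in 6 alternatives, among them the one without array 3 (0.0138). SKN7, which acts in the oxidative stress response, had a mean of 0.10 ± 0.30 and HMS2 one of 0.22 ± 0.17, and neither passed.

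**Figure D3:**
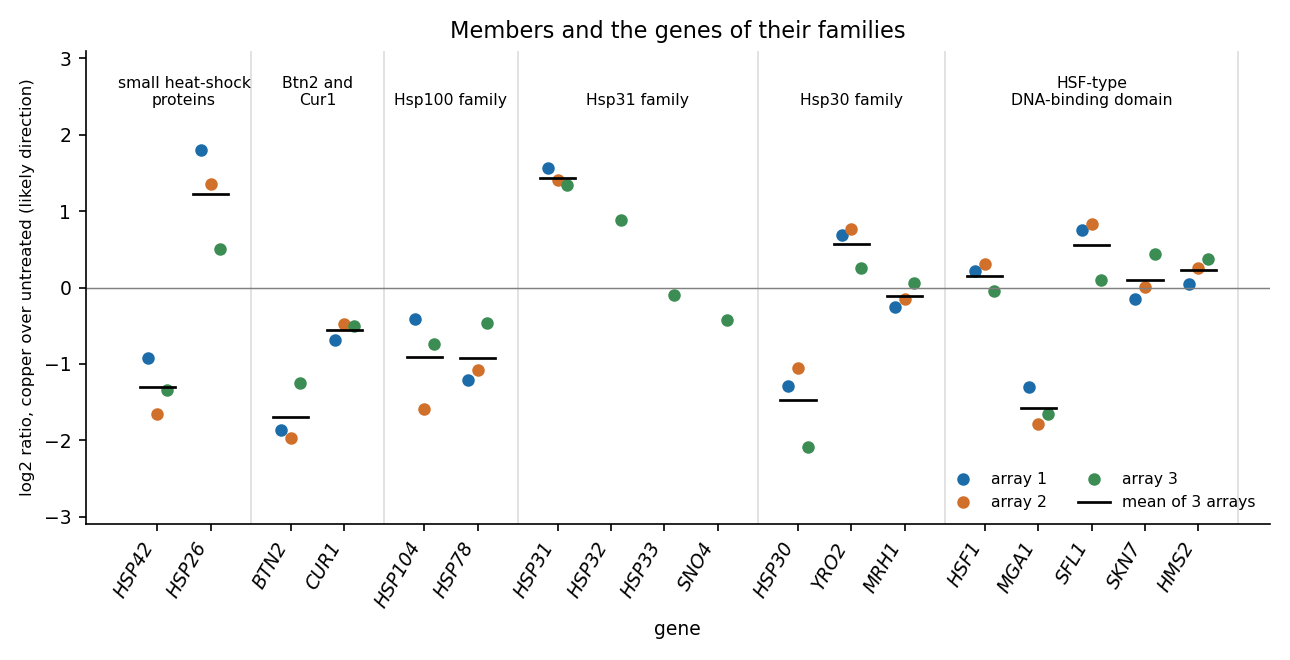
Log2 ratio (vertical axis) of the 8 genes beside the genes of their families, with 1 point per array in its colour and a bar at the mean of 3 arrays where all hold a value. HSP26 and HSP42 lie on opposite sides of 0, HSP78 lies with HSP104, YRO2 lies above 0 and HSP30 below it, and MGA1 lies below HSF1.

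Other targets of Hsf1 were read from a list drawn up from general knowledge of the yeast heat shock response, with earlier results of these data known. Of 20 tested genes, 9 fell, 1 rose and 10 did not pass, with a median of -0.26 beside -0.04 over all tested genes. Shares over all tested genes were 12.0% downward and 11.5% upward. The median was -0.32, -0.35 and -0.27 on arrays 1, 2 and 3. FES1, an exchange factor that frees substrate from Hsp70, fell by 1.57 ± 0.20. APJ1, a J-domain protein that acts on aggregates in the nucleus, fell by 1.37 ± 0.19. The Hsp90 genes HSC82 and HSP82 had -1.36 ± 0.29 and -1.14 ± 0.45, and both passed. Both encode Hsp90, and whether their spots read them apart was not tested. The single gene that rose was HSP10, a mitochondrial cochaperonin, at 1.10 ± 0.20. Corrected for coding length, HSP10 stood at 0.75 and still passed. HSP60, its partner, had -0.17 ± 0.09 and did not pass. Without array 2 the number that fell was 5.

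Hsp104 acts together with Hsp70, J-domain proteins and exchange factors. Of 10 tested genes of this list, 7 also stand in the list of Hsf1 targets. In the limma fit 3 of the 10 fell, 0 rose and 7 did not pass, with a median of -0.24. Shares over all tested genes were 12.0% downward and 11.5% upward. At an unadjusted p of 0.05 in limma, 1 gene of the list, SSA3, was higher and 4 were lower. The share of all tested genes at that unadjusted threshold was not counted, so these counts have no background. Besides FES1 and APJ1, SSE1, an Hsp110 exchange factor, fell by 0.73 ± 0.23, a call lost without array 2 (adjusted p = 0.0611). The Hsp70 genes SSA2, SSA3 and SSA4 had -0.29 ± 0.37, 0.42 ± 0.33 and 0.07 ± 0.31. YDJ1 and SIS1, which encode J-domain partners of Hsp70, had -0.07 ± 0.33 and -0.18 ± 0.13. None of these 5 genes passed, and SSA1 was not analysed here. Whether a spot of one Hsp70 gene also takes up cDNA of another was not tested.

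Genes that act next to the sorting factors were read in a pair of further lists. Of 10 tested genes of ubiquitin-dependent quality control, 1 fell, 0 rose and 9 did not pass, with a median of -0.06. Beside this list and the next stand shares of 12.0% downward and 11.5% upward over all tested genes. At an unadjusted p of 0.05 in limma, 1 was higher (DSK2, a ubiquitin receptor, 0.45 ± 0.12) and 1 lower, again without a counted share of all genes. The gene that fell was RSP5, a ubiquitin ligase that marks heat-damaged cytosolic proteins, at -0.61 ± 0.11. Its call was lost without array 1 (adjusted p = 0.150), in a fit that gave all genes a single variance. SAN1, the nuclear ligase for misfolded proteins, had 0.24 ± 0.06, and CDC48, the segregase, had -0.06 ± 0.49. Btn2 is also known to bind endosomal sorting proteins. Of 5 tested genes for its binding partners and the retromer coat, VPS35 fell by 0.59 ± 0.10, IST2 rose by 0.46 ± 0.10 and 3 did not pass. The call of IST2 (adjusted p = 0.0497) was lost when any single array was left out, with adjusted p from 0.0721 to 0.335. That of VPS35 was lost without array 1 (adjusted p = 0.184, in the same single-variance fit) or array 2 (0.0569).

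Genes of the general stress response, which the factors Msn2 and Msn4 drive, were read in a further list. The members were not sorted by the factors that act on them, and which factor acted here was not tested. In a list of 25 tested general stress genes without the members, 6 rose, 3 fell and 16 did not pass, with a median of 0.04. Over all tested genes, 11.5% passed upward and 12.0% passed downward. GND2, an enzyme of the pentose phosphate pathway, had 1.61 ± 0.87, HSP12, a membrane-stabilising stress protein, 1.49 ± 0.52, PHM7 1.44 ± 0.32 and DDR2 1.42 ± 0.47. Corrected for coding length, DDR2 stood at 0.72, HSP12 at 1.15, PHM7 at 1.54 and GND2 at 1.67. MSN2 had 0.11 ± 0.02 and MSN4 had -0.31 ± 0.41, and neither passed. The genes that fell were PGM2 (-0.73 ± 0.20), RTN2 (-0.61 ± 0.32) and TPS2 (-0.54 ± 0.27). Each of these calls was lost with an array left out. PGM2 lost it without array 2 (adjusted p = 0.0585) and RTN2 without array 1 (0.192) or array 3 (0.0926). TPS2 lost it without array 1 (0.116) or array 2 (0.170). All genes shared a single variance in the fit without array 1. Array 3 held the lowest ratio for GND2, HSP12, PHM7 and DDR2, as it did for HSP26, and also for HSP31, YRO2 and CUP1-1. Ratios of all tested genes were narrower on array 3 (SD 0.48) than on arrays 1 and 2 (0.58 and 0.66).

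**Figure D4:**
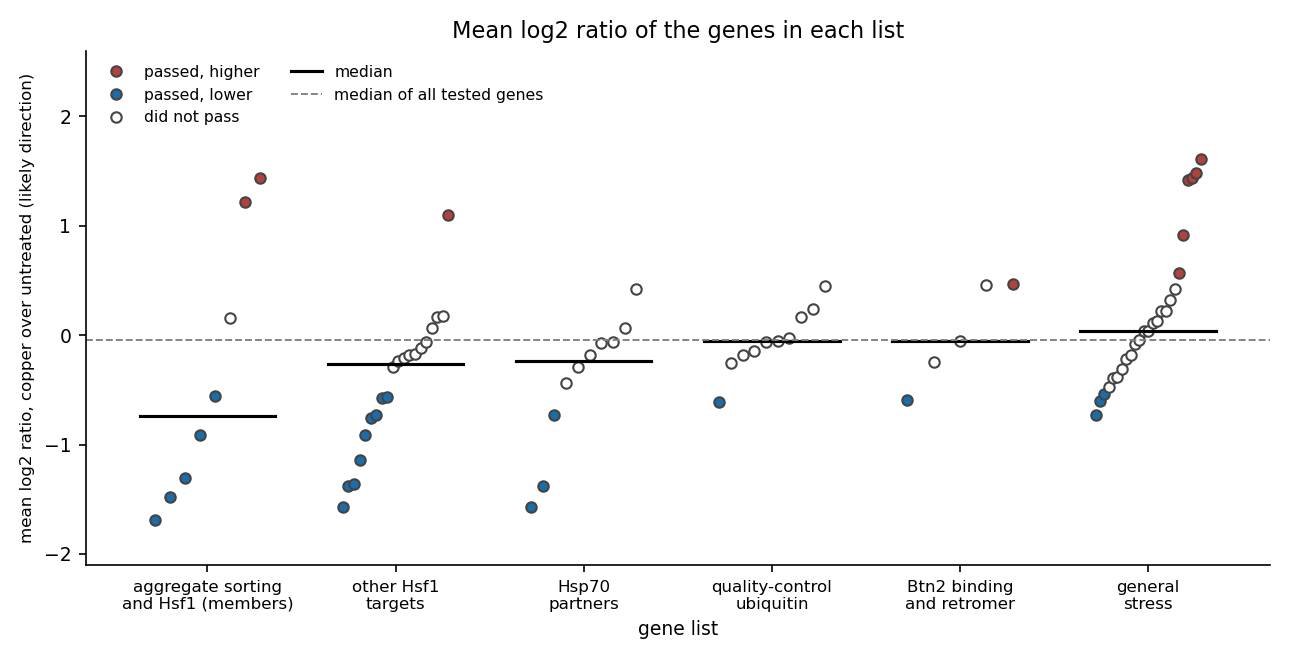
Mean log2 ratio (vertical axis) of each tested gene in 6 lists, with red points for genes that passed upward, blue for genes that passed downward and white for genes that did not pass. Bars are list medians and the dashed line is the median of all tested genes, -0.04. SSA3 and the Hsf1 targets among the Hsp70 partners appear in more than 1 list. Of 20 tested Hsf1 targets, 9 fell and 1 rose, beside 12.0% downward and 11.5% upward over all tested genes.

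The genes whose ratios lay nearest to each member were found by Euclidean distance over the log2 ratios of the 3 arrays, which measures likeness of size and sign and says nothing of function. BTN2 had 0 other genes within a distance of 0.25. The nearest were BSC1 at 0.38 and TCO89 at 0.49. HSP30 also had 0, with YLR257W at 0.63 and GSY1, a glycogen synthase gene, at 0.65. HSP42 had 1, CIN5, a transcription factor of the Yap family, at 0.17, followed by NSR1 at 0.31. HSP26 had 1, the uncharacterised YMR316C-A at 0.22, followed by PMP2 at 0.33. HSP104 had 8, of which HMRA2 (0.08) and END3 (0.15) were the nearest, and HSP31 had 4, of which IRC8 (0.08) and SML1 (0.14) were the nearest. CUR1 had 93, led by VPS35 and ADH4, both at 0.06, and HSF1 had 209, led by SYH1 at 0.03 and RSC9 at 0.05.

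Neighbouring genes on the chromosome were read by their order in the R64 annotation. BTN2 lay between VPS62 (-0.28 ± 0.12) and SKN1 (0.36 ± 0.14), neither of which passed. HSP104 lay between ISA1 (0.41 ± 0.15, not passed) and PAU17, which rose by 0.62 ± 0.34, did not pass once corrected for length (adjusted p = 0.128) and belongs to a family of near-identical genes whose spots cannot be told apart with certainty. CUR1 followed TDA6, which fell on all arrays (-1.02, -1.22 and -0.89) to a mean of -1.04 ± 0.16, lower than CUR1. HSP31 stood next to FIT1, a cell-wall gene for siderophore iron, which rose to 1.10 ± 0.26. SUP35, the translation termination factor beside HSP42, had -0.30 ± 0.52 and did not pass.

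Ratios on these arrays also varied with gene length and spot position. The 8 genes ranged from 645 bases (HSP26) to 2727 bases (HSP104), and genes of like length (within a factor of 1.2) had median log2 ratios between -0.12 and -0.03. Corrected for length, BTN2 stood at -1.63, HSP42 at -1.25, HSP104 at -0.81, HSP26 at 1.21, HSP31 at 1.46 and HSF1 at 0.25. Median ratios of the 8 spot groups, given by the first digit of the probe number, ranged from -0.14 to 0.07. No member changed its sign or its side of the threshold with either correction.

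**Figure D5:**
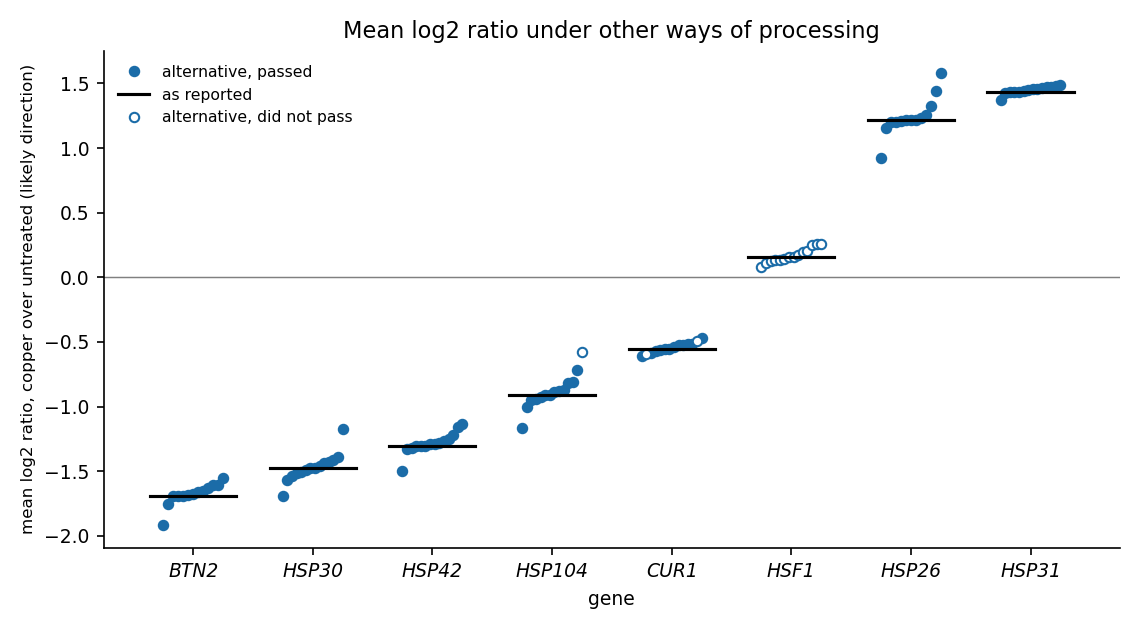
Mean log2 ratio (vertical axis) of each gene as reported (bar) and under the alternatives listed under the processing dependence (points), apart from the test against a 2-fold minimum, which leaves the ratios as they are. Filled points passed an adjusted p of 0.05. HSF1 passed under none of these, HSP104 failed to pass under 1 and CUR1 under 2, and every gene kept its sign.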

How the data were processed

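Polyadenylated RNA of copper-treated (Cy5) and untreated (Cy3) yeast was compared on 2-colour arrays of 6912 spots. The values are log2 ratios deposited by the authors, which per the labels had passed LOWESS normalization on spots flagged 0. The log2 base follows from the lowest value, -6.64, which is the log2 of 0.01. Not given in the sources used here are the scanner, the image software and the background correction. Column medians of the 5 scans ran from -0.02 to -0.002, and 41.3% to 86.1% of spots held a value.

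Array 1 was its single scan, array 2 the average over both laser powers (or the one with a value) and array 3 its high-power scan, since the series description sets the other aside. Spots were named through the platform annotation (5446 with 1 symbol, 0 with several, 1466 with none), and all 5446 gene identifiers were found in the R64 gene table. Repeat spots of a gene were averaged. The 4824 genes with values on 3 arrays were tested for a mean ratio other than 0 in limma 3.58.1 (lmFit, eBayes) under R 4.3.3. The tests were two-sided and Benjamini-Hochberg adjusted, with a threshold of 0.05. The fit was also run on simulated data with independent arrays of equal spread, which says nothing of dye bias or shared controls. Depth does not apply to arrays, and their number limits the precision.

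The 8 genes and the lists were chosen with earlier results of these data known. Named are the 8 genes, their families, list genes (the largest changes first) and the 2 nearest genes of each. Alternatives were other ways to join scans, centring or scaling of arrays, values on at least 2 arrays, robust variances, array weights, a 2-fold minimum, a loess correction for coding length (span 0.4) and each array left out. A planned search of promoter and protein sequences was not run, and sequences are not used here.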

Additional observations from a re-analysis of the deposited data

How the results depend on the processing

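Of the 8 genes, BTN2, HSP42, HSP26, HSP30 and HSP31 kept direction and call under every alternative that gave a value, apart from the test against a 2-fold minimum, and HSF1 passed under none. HSP26 and BTN2 held no value on the low-power scan of array 2, so with that scan alone 6 of the genes were tested. Of these, 1 rose and 4 fell, while 442 of all 2686 tested genes rose and 349 fell. Against a 2-fold minimum 7 genes rose and 4 fell in the whole table, 0 of the 8 genes passed in either direction in limma (1 higher and 2 lower at an unadjusted p of 0.05), and the means stayed as reported (HSP104 -0.91, HSP42 -1.30, HSP26 1.22, BTN2 -1.69, CUR1 -0.56, HSP31 1.44, HSP30 -1.48; lowest adjusted p = 0.452, for BTN2); all counts of the Hsf1 target, Hsp70 partner and general stress lists were 0. That test asks a different question, and the share of all genes at its unadjusted threshold was not counted. Leaving out each array in turn gave 276 to 573 genes higher and 218 to 638 lower, against 556 and 578. The 8 genes then gave 3 to 5 lower, with HSP104 between -1.16 and -0.58 and CUR1 between -0.59 and -0.49. In the same fits the Hsf1 target list gave 5 to 8 lower with a median of -0.35 to -0.23, the Hsp70 partner list 0 to 1 higher, and the general stress list 1 to 2 lower. The fit without array 1 gave all genes a single variance, and its counts and adjusted p-values are not directly comparable. The median of the Hsf1 targets was -0.21 with the high-power scan alone for array 2, -0.30 with both scans for array 3 and -0.31 centred by spot group, against -0.26. The Hsp70 partners had 1 gene higher with array weights and centred by spot group, and the general stress genes 1 lower with the high-power scan of array 2 or the length correction. Over the alternatives the family, ubiquitin and Btn2 partner lists had between 0 and 2 calls in a direction. The cause of these shifts was not tested. The planned fit of 4 scans with the array as a random block could not be run, as its correlation cannot be estimated from 4 columns, and 5 scans were used instead. That fit and the spot-group centring were chosen after seeing the data. No paired analysis was possible because all arrays belong to 1 group and each already holds its own control channel. With 3 arrays and a single spot per gene, small ratios such as that of HSF1 cannot be resolved.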
